A study of Mus musculus with 14 samples.

Results

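Expression of 8 oviduct and ciliated cell genes was examined out of 21853 genes in the table, across ovaries and uteruses of aged mice. The genes were chosen by name for what they mark: Ovgp1 for the secretory cells of the oviduct, and Foxj1, Dnah5, Dnah9, Tekt1, Rsph1, Cfap126 and Mcidas for cells with motile cilia. They and the gene lists used further on were chosen with earlier results of these data known. All 8 names matched an Ensembl gene of the table through the GENCODE mouse M21 annotation, and all 14 libraries were read. The mice were 28-week-old female C57BL/6J animals. The OT group (n = 4) had received AMSC-CM, a concentrated medium in which mesenchymal stem cells of human amniotic membrane from pooled donors had grown, through the tail vein at 1 µL per g of body weight in 6 injections 4 days apart. The OC group (n = 3) had received saline instead. Every mouse of both groups had also been given PMSG and then hCG, 10 IU each and 48 h apart, to bring the estrous cycles together. Each mouse gave 1 ovary library and 1 uterus library, so OC1 to OC3 and OT1 to OT4 name the same animal in both tissues. The values were FPKM, fragment counts divided by transcript length and by the mapped fragments of the library, so levels can be compared between genes.

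The oviduct carries the egg from the ovary to the uterus and lies directly against the ovary in the mouse. Its lining holds secretory cells, which make oviduct-specific glycoprotein (OVGP1) under estrogen, and multiciliated cells, whose beating cilia move the egg and fluid. A motile cilium is built on a microtubule axoneme driven by dynein arms, and its genes are switched on by a cascade in which MCIDAS and related regulators start multiciliogenesis, and FOXJ1 and RFX factors turn on the genes of the axoneme. Ovarian and uterine cells commonly have a single primary cilium that does not beat, which is built by intraflagellar transport (IFT) but lacks dynein arms.

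The labels name the tissues as ovary and uterus only, and the sources used here do not say how the ovary was trimmed from the oviduct. The ovary identity of the libraries was plain, since the summed level of 9 ovary markers (Amh, Fshr, Inha, Cyp19a1, Zp3, Gdf9, Star, Cyp17a1 and Lhcgr) was 1040 to 1507 FPKM in ovaries and 6.07 to 11.4 FPKM in uteruses. The summed level of 8 uterus markers (Hoxa10, Hoxa11, Myh11, Des, Acta2, Actg2, Pgr and Msx1) was 587 to 1791 FPKM in ovaries and 5105 to 9553 FPKM in uteruses. In the ovaries the muscle genes Acta2 (327 to 795 FPKM), Actg2 (91.2 to 400), Myh11 (99.2 to 279) and Des (55.1 to 221) made up most of that sum. Hoxa11 was 0.0707 to 14.7, Msx1 2.79 to 11.0 and Pgr 4.83 to 17.5 FPKM there. Within that list the tract patterning gene Hoxa10 ranged from 0.572 to 53.4 FPKM among the ovary libraries, against 138 to 236 FPKM in the uteruses. The library totals were 374816 to 577494 FPKM, and 15903 to 16690 genes were above 0 per library. The number of fragments per library is unknown. The steps between the lowest values placed the relative depth of the libraries at 0.846 to 1.19 of the OC1 ovary.

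Positions are on GRCm38 (mm10). Ovgp1 (ENSMUSG00000074340.9) lies on chromosome 3 at 105973711 to 105987423 on the plus strand, and it overlaps the processed transcript Gm42890 on the same strand, so reads in the overlap could belong to either. Foxj1 (ENSMUSG00000034227.7), the forkhead factor of motile ciliogenesis, lies on chromosome 11 at 116330704 to 116335399 on the minus strand. Dnah5 (ENSMUSG00000022262.8; chromosome 15, 28203752 to 28472052, plus strand) and Dnah9 (ENSMUSG00000056752.16; chromosome 11, 65831282 to 66168551, minus strand) encode heavy chains of the outer dynein arm. Tekt1 (ENSMUSG00000020799.16; chromosome 11, 72344722 to 72362442, minus strand) encodes a tektin, a filament of the axonemal microtubules. Rsph1 (ENSMUSG00000024033.10; chromosome 17, 31255019 to 31277383, minus strand) encodes a radial spoke head protein. Cfap126 (ENSMUSG00000026649.14; chromosome 1, 171113918 to 171126967, plus strand), also known as Flattop, encodes a cilium and basal body protein. Mcidas (ENSMUSG00000074651.3; chromosome 13, 112993845 to 113000394, plus strand) encodes multicilin, a regulator that starts the multiciliated fate. Dnah9 and Rsph1 overlap a gene on the opposite strand only, and the libraries were stranded and counted by strand.

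The promoters of the genes were read because the ciliated cell genes varied together in the ovary, as described further on. A RefSeq table of GRCm38.p6 held 9 promoters for 6 of the 8 genes, and Foxj1 and Rsph1 were not among them. Each was searched on both strands, from 250 bases before to 50 bases after the start, for an RFX half-site (GTTGCC), an RFX palindrome (GTNNCC, then any 3 bases, then GNNAC), a forkhead motif (TGTTTAC) and an E2F motif (GGCGGGAA). Of all 32851 promoters in the table, 12.5% held the half-site, 4.62% the palindrome, 3.65% the forkhead motif and 2.19% the E2F motif. Among the 9 promoters, 3 held at least 1 of these motifs. The share of all promoters with at least 1 of them was not counted, so the 3 are a description only. Tekt1 held half-sites beginning at -35 and -15, and the palindrome also began at -15, where it overlaps the half-site. Cfap126 held the palindrome at -82 of the most downstream of its 3 starts, which lies inside the gene, matched on both strands at the same place. Mcidas held a half-site at -195. Neither Dnah5 nor Dnah9, nor the other starts of Tekt1 and Cfap126, held any of these letters in the window. Ovgp1 held none of them either, but the estrogen half-site GGTCA, present in 40.5% of all promoters, stood at -182 and -113, as it did at -173 and 45 of Tekt1. The sequences that follow are the 250 bases before the start, 5′ to 3′ on the gene's strand, with the RFX matches in capitals, shown to set the genes with a match beside Dnah9 and Ovgp1 without one. They cover chr11:72361883-72362132 (Tekt1, minus strand), chr1:171122795-171123044 (Cfap126, plus strand), chr13:112993618-112993867 (Mcidas, plus strand), chr11:66168552-66168801 (Dnah9, minus strand) and chr3:105973552-105973801 (Ovgp1, plus strand).
Tekt1: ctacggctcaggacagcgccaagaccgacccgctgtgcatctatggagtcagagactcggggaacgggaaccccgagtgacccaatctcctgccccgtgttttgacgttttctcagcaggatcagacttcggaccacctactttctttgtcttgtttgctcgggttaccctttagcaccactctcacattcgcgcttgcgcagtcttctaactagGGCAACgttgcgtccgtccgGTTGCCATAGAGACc
Cfap126: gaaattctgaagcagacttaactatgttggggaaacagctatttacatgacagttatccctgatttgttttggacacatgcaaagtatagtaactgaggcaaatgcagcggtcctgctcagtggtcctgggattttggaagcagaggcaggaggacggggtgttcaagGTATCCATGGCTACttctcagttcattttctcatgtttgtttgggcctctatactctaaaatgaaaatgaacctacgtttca
Mcidas: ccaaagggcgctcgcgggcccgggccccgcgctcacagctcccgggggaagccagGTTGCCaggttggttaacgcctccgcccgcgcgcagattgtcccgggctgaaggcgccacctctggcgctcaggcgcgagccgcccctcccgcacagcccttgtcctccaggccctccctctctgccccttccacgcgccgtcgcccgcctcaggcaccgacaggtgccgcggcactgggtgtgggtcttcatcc
Dnah9: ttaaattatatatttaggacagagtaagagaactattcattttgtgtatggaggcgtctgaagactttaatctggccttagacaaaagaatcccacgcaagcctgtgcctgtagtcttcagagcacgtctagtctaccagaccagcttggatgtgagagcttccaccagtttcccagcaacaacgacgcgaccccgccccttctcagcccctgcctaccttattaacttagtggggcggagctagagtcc
Ovgp1: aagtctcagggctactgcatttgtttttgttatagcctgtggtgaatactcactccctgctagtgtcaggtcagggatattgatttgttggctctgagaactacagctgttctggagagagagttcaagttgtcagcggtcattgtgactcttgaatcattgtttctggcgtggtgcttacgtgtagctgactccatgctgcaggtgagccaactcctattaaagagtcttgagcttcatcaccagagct

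In the ovary, Ovgp1 was among the most abundant transcripts of the whole library. Its level was 863, 852 and 568 FPKM in OC1, OC2 and OC3, and 424, 725, 570 and 942 FPKM in OT1 to OT4. It ranked between 22 and 88 of the 21853 genes in the ovary libraries (median rank 47). The lowest and the highest ovary were both in the OT group, and the groups overlapped. In the uterus Ovgp1 was 169, 54.6 and 40.9 FPKM in OC1, OC2 and OC3 and 3.86, 93.7, 23.4 and 36.2 FPKM in OT1 to OT4. OC1 was the highest uterus and OT1 the lowest, 43.8-fold apart, against a 2.22-fold range among the ovaries. All 7 ovaries were above all 7 uteruses.

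Foxj1 was the most abundant of the 7 ciliated cell genes in the ovary, at 19.2, 16.3 and 18.2 FPKM in the OC ovaries and 19.8, 19.1, 11.9 and 20.5 FPKM in OT1 to OT4. Its mean over the 7 ovaries was 17.9 ± 2.93 FPKM (SD). OT3 was the lowest, and the other 6 ovaries lay between 16.3 and 20.5 FPKM. In the uterus Foxj1 was near the bottom of the scale, at 0.261, 0.297 and 0.264 FPKM in the OC group and 0.113, 0.173, 0.248 and 0.118 FPKM in the OT group. Each OT uterus was below each OC uterus, although OT3 was close to the OC values.

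The outer arm dyneins had a steady ratio in the ovary. Dnah5, found in the dynein arms along the whole cilium, was 11.2, 9.17 and 8.32 FPKM in OC ovaries and 11.5, 11.7, 6.98 and 11.0 FPKM in OT1 to OT4. Dnah9, which in multiciliated cells sits in the outer part of the cilium, was 5.56, 4.23 and 4.26 FPKM in OC ovaries and 5.58, 4.64, 3.55 and 6.05 FPKM in OT1 to OT4. Dnah5 was 1.81 to 2.53 times Dnah9 in the 7 ovaries. In the uterus Dnah5 was 0.560, 0.474 and 0.342 FPKM in the OC group and 0.422, 0.627, 1.18 and 0.848 FPKM in the OT group. Dnah9 was 0.119, 0.112 and 0.102 FPKM in the OC uteruses and 0.0181, 0.0529, 0.0602 and 0.00829 FPKM in the OT uteruses. Their ratio was 3.35 to 102 in the uterus, where Dnah9 was close to 0 and Dnah5 was not. By group the ratio was 3.35 to 4.71 in OC uteruses and 11.8 to 102 in OT uteruses, a difference that was not tested.

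Tekt1, Rsph1 and Cfap126 encode structural parts of the cilium. Tekt1 was 4.25, 3.15 and 3.34 FPKM in OC ovaries and 4.97, 4.19, 3.40 and 5.29 FPKM in OT1 to OT4. In the uterus Tekt1 was 0.221, 0.0896 and 0.191 FPKM in the OC group, 0.228 and 0.0851 FPKM in OT1 and OT2, and was listed at 0 in OT3 and OT4. Rsph1 was 6.38, 5.03 and 4.14 FPKM in OC ovaries and 5.84, 5.64, 4.01 and 6.65 FPKM in OT1 to OT4. In the uterus Rsph1 was 1.49, 1.64 and 1.62 FPKM in the OC group and 1.72, 1.59, 1.99 and 1.33 FPKM in the OT group. Cfap126 was 5.88, 6.06 and 5.96 FPKM in OC ovaries, and it spread from 3.87 FPKM in OT3 through 6.40 in OT2 and 8.01 in OT4 to 10.3 FPKM in OT1. The OT ovaries lay on both sides of the 3 OC ovaries. In the uterus Cfap126 was 1.01, 2.09 and 2.99 FPKM in the OC group and 1.04, 0.938, 2.68 and 1.19 FPKM in the OT group.

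Mcidas, the regulator, was hardly detected. It was 0.199 and 0.136 FPKM in the OC1 and OC2 ovaries, 0.0636 and 0.208 FPKM in the OT1 and OT4 ovaries, and listed at 0 in the other 3 ovaries and in all 7 uteruses. The 4 values above 0 lay at 3, 2, 1 and 3 steps of 0.0669 FPKM, each within 0.116 of a step, so each may rest on a few fragments. No difference between groups was detectable at such levels. Among 15 regulators of multiciliogenesis, Ccno, which acts with Mcidas in making the many basal bodies and was picked out after its values were seen, was 1.47 to 4.72 FPKM in the ovaries and 0 to 0.207 FPKM in the uteruses.

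**Figure D1:**
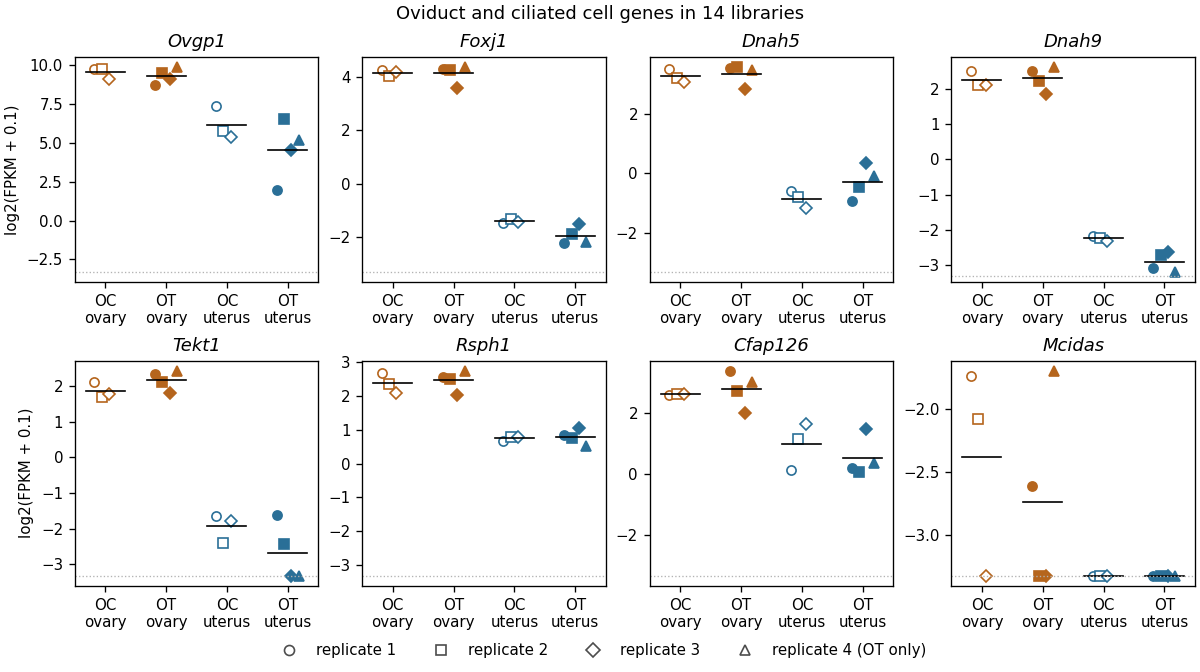
Level of each gene in each library on the log2(FPKM + 0.1) scale (y axis, with its own range for each gene), by group and tissue (x axis). Open symbols are OC, filled symbols OT, each marker shape is 1 replicate number, black lines are group means and the dotted line is 0 FPKM. Apart from Mcidas, every gene was higher in each of the 7 ovaries than in each of the 7 uteruses.

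By mean FPKM the order in the ovary was Ovgp1 (706 ± 191), Foxj1 (17.9 ± 2.93), Dnah5 (9.99 ± 1.84), Cfap126 (6.64 ± 2.01), Rsph1 (5.38 ± 1.04), Dnah9 (4.84 ± 0.906), Tekt1 (4.08 ± 0.835) and Mcidas (0.0868 ± 0.0940; SD, n = 7 each). The ranges of Ovgp1, Foxj1 and Dnah5 did not touch. From Dnah5 down to Tekt1 the ranges of neighbouring genes overlapped. Dnah5 was still above Cfap126 in 7 of 7 ovaries, Cfap126 above Rsph1 in 5, Rsph1 above Dnah9 in 6 and Dnah9 above Tekt1 in 7. In the uterus the order was different, with Ovgp1 (60.3 ± 55.5) followed by Cfap126 (1.71 ± 0.870), Rsph1 (1.62 ± 0.204), Dnah5 (0.636 ± 0.289), Foxj1 (0.211 ± 0.0751), Tekt1 (0.116 ± 0.0980), Dnah9 (0.0674 ± 0.0447) and Mcidas at 0. Foxj1 thus stood at rank 2 in the ovary and rank 5 in the uterus. The ranges of Cfap126 and Rsph1 overlapped there, as did those of Foxj1 and Tekt1 and of Tekt1 and Dnah9.

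The ovary was then compared with the uterus of the same mouse by limma on log2(FPKM + 0.1), with the mouse as a block. All 7 fitted genes were at least 2-fold lower in the uterus at a Benjamini-Hochberg adjusted p under 0.05, where 9.53% of the 14557 tested genes were. Foxj1 was lower by the widest margin, with a log2 difference of -5.87 (SE 0.20, limma adjusted p = 5.79e-08). Dnah9 followed at -4.91 (SE 0.24, adjusted p = 4.65e-07), Tekt1 at -4.40 (SE 0.29, adjusted p = 2.66e-06) and Dnah5 at -3.84 (SE 0.23, adjusted p = 1.35e-06). Ovgp1 was lower by a log2 difference of -4.16 (SE 0.43, adjusted p = 3.79e-05). Cfap126 and Rsph1 differed least, by -1.99 (SE 0.32, adjusted p = 0.000581) and -1.66 (SE 0.16, adjusted p = 2.82e-05). The 0.1 FPKM added before the log understates the differences of Foxj1, Dnah9 and Tekt1, which were near or under that level in the uterus. On the FPKM scale Foxj1 was 48.2 to 176 times higher in the ovary than in the uterus of the same mouse, Ovgp1 5.10 to 110 times, Dnah5 5.93 to 27.3 times, Rsph1 2.02 to 5.02 times and Cfap126 1.44 to 9.89 times. In bulk tissue, fewer ciliated or secretory cells and less RNA per cell cannot be told apart.

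The genes entered that fit through their ovary levels, so they were also counted in a fit with no filter on low values, in which 18473 genes were tested. There 7 of the 8 genes were at least 2-fold lower in the uterus at an adjusted p under 0.05 by limma, where 9.91% of all tested genes were. Mcidas had a log2 difference of -0.74 (limma adjusted p = 0.0461), a size that depends on the added 0.1 FPKM because the uterus values were all 0. In the filtered fit, the ranges of all 7 fitted genes were apart with the uterus lower, and 13.5% of the tested genes were so. That share was not counted without the filter, which Foxj1, Dnah9 and Tekt1 passed only through their ovary levels.

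Other genes of the motile cilium moved the same way between the tissues. Of 88 further genes in 5 hand-written lists (regulators of multiciliogenesis, axonemal dyneins, dynein assembly factors, radial spoke and central pair genes, tektins and CFAP genes), 87 were above 0 somewhere. In the fit with no filter, 60 of these were at least 2-fold lower in the uterus at an adjusted p under 0.05 and 1 was higher. Their median log2 difference was -2.44, against -0.02 over all tested genes, and 6 of the 88 were listed at 0 in all uteruses. By list, and with the members included, 16 of 19 axonemal dynein genes were 2-fold lower, 14 of 20 radial spoke and central pair genes, 25 of 31 tektin and CFAP genes, 5 of 9 dynein assembly factors and 6 of 15 regulators. By contrast, 0 of 24 primary cilium and IFT genes were called 2-fold different in either direction, and their median log2 difference was 0.03. In the filtered fit 13 of the 24 had an unadjusted p under 0.05 by limma, where 8411 of the 14557 tested genes did. At an adjusted p under 0.05, 7 were higher and 5 lower in the uterus, where 3797 and 3798 of all tested genes were. The differences of the whole list lay within -0.70 to 0.65. Of 8 genes of the sperm flagellum, 4 were above 0 in any library and 1 was 2-fold lower in the uterus.

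At the extremes, the cilium genes Fam183b, Sntn and Cfap44 had the largest differences. Fam183b was 6.11 to 12.1 FPKM in the ovaries and listed at 0 in 6 of 7 uteruses. Sntn, which encodes sentan of the ciliary tip, was 4.52 to 8.33 FPKM in the ovaries and listed at 0 in all uteruses. Cfap44 was 4.15 to 7.97 FPKM in the ovaries and at most 0.0183 FPKM in a uterus. At the other end, Tekt2 was higher in the uterus, at 11.8 to 28.8 FPKM against 0.765 to 5.99 FPKM in the ovary (log2 difference 2.71, SE 0.30, limma adjusted p = 5.93e-05). Tppp3, a tubulin polymerization gene found beyond ciliated cells, was also higher in the uterus, by a log2 difference of 0.91 (SE 0.18, limma adjusted p = 0.00237). Myb, a cell cycle factor that also acts in early multiciliogenesis, did not pass the test (log2 difference 0.55, SE 0.33, limma adjusted p = 0.189). Tekt1 and Tekt2, both tektins, therefore went opposite ways between the tissues.

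**Figure D2:**
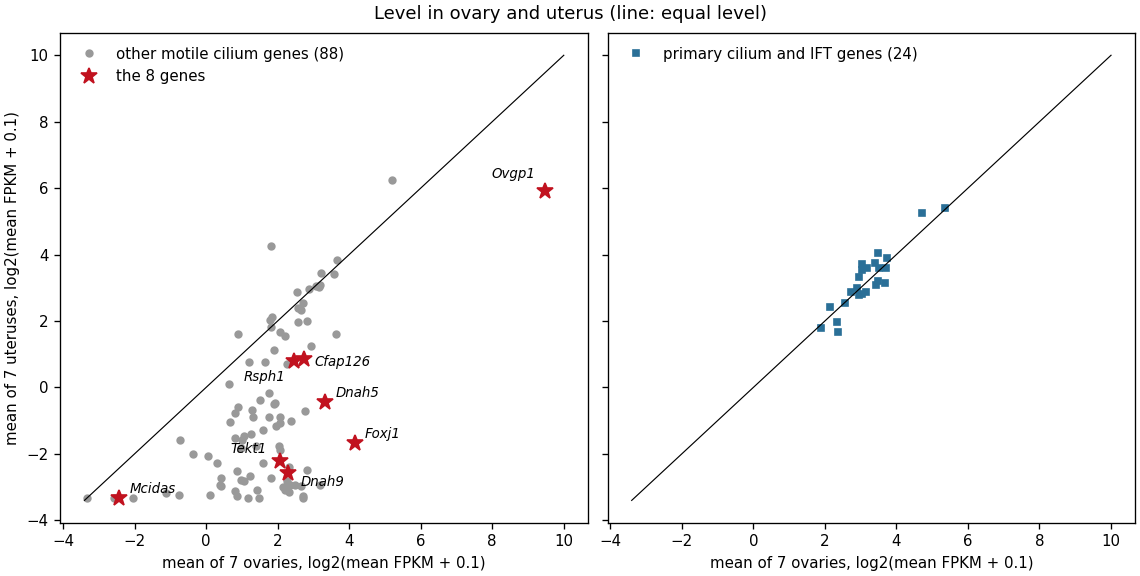
Mean level over 7 uteruses (y axis) against mean level over 7 ovaries (x axis), both as log2(mean FPKM + 0.1), with the line of equal level. Left, the 8 genes (red stars) and 88 other motile cilium genes (grey); right, 24 primary cilium and IFT genes (blue), which lie along the line while most motile cilium genes lie below it.

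OT was then compared with OC within each tissue, to see whether AMSC-CM went with a change in these genes. In the ovary 0 of the 7 fitted genes passed the cutoffs of the study, a 2-fold change at an unadjusted p of 0.05 or less, where 0.451% of 14415 tested genes did, and 0 of the 7 had an unadjusted p under 0.05 by limma. Over all those genes limma called 53 higher and 12 lower, 0 at an adjusted p under 0.05, and 650 had an unadjusted p under 0.05. Ovgp1 had an OT minus OC log2 difference of -0.23 (SE 0.27, 95% interval -0.84 to 0.38), and of -0.034 without OT1. Foxj1 was at -0.03 (SE 0.18, 95% interval -0.45 to 0.38) and Cfap126 at 0.17 (SE 0.28, 95% interval -0.47 to 0.81). Dnah5, Dnah9 and Rsph1 lay between 0.06 and 0.09 (SE 0.19 to 0.20). Tekt1 had the largest ciliated gene difference, 0.30 (SE 0.19, 95% interval -0.13 to 0.73). The limma adjusted p was 0.997 to 0.998 for all 7. In the exact two-sided permutation test over 35 splits, whose smallest possible p is 0.0571, the ovary p of the 8 genes ranged from 0.171 to 0.971. The intervals of these 7 genes left out a 2-fold change in either direction, but not smaller ones.

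In the uterus only Ovgp1, Dnah5, Rsph1 and Cfap126 reached a mean of 0.5 FPKM and were fitted. Of these 4 genes 0 passed the cutoffs, where 2.9% of 14151 tested genes did, and 0 of the 4 had an unadjusted p under 0.05 by limma. Limma called 316 of all those genes higher and 94 lower, 0 at an adjusted p under 0.05, and 1160 had an unadjusted p under 0.05. Ovgp1 was lower on average in OT, by a log2 difference of -1.61, with a wide error (SE 0.99, 95% interval -3.88 to 0.66, limma adjusted p = 0.627). Without OT2, the OT uterus highest in Ovgp1, the difference was -2.27 and passed the cutoffs. Without OT1, the lowest, it was -0.75. Dnah5 had a log2 difference of 0.58 (SE 0.46, 95% interval -0.47 to 1.63, limma adjusted p = 0.675), Cfap126 of -0.45 (SE 0.47, 95% interval -1.54 to 0.64, and -0.86 to -0.12 with 1 mouse left out) and Rsph1 of 0.05 (SE 0.25, 95% interval -0.51 to 0.62).

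Foxj1 and Dnah9 were under 0.5 FPKM in the uterus and were outside that fit. Their OT values were all below their OC values, an exact permutation p of 0.0571 for each, the smallest this design can give. Of the genes tested in the uterus, 5.48% had all OT libraries below all OC libraries. That set leaves out Foxj1 and Dnah9, and no share was counted for genes at their low level. In a limma fit with no filter on low values the log2 difference was -0.54 for Foxj1 and -0.66 for Dnah9. Of these Dnah9 alone had an unadjusted p of 0.05 or less, and neither reached 2-fold on the log2(FPKM + 0.1) scale. Tekt1 had a difference of -0.73 in that fit, with 2 OT libraries at 0.

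**Figure D3:**
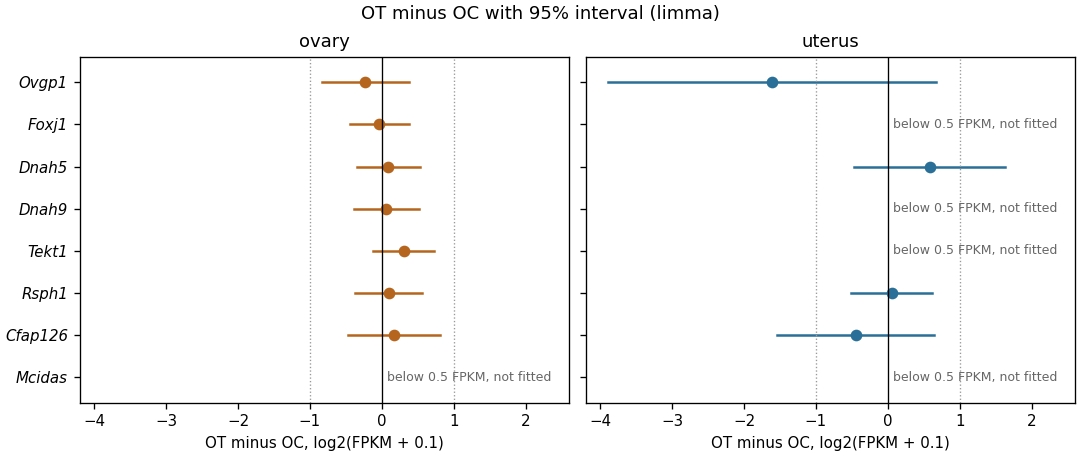
OT minus OC difference of each gene on the log2(FPKM + 0.1) scale (x axis) in the ovary (left) and uterus (right), with limma 95% intervals as bars and dotted lines at a 2-fold change. Genes with a mean under 0.5 FPKM were not fitted, all intervals cross 0, and the widest is that of Ovgp1 in the uterus.

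Markers of other tissue differed between OT and OC in the uterus, at an unadjusted p only. The summed level of 10 adipocyte markers was 113 to 396 FPKM in OC uteruses and 1907 to 16793 FPKM in OT uteruses. Of these 10 of 10 were called higher, where 316 of 14151 tested genes were. The summed level of 10 stratified epithelium markers was 6.89 to 17.0 FPKM in the OC group and 51.3 to 920 FPKM in the OT group, with 7 of 10 called higher. The smallest limma adjusted p was 0.357 in each list. The OT1 uterus, lowest in Ovgp1, was also lowest in the tract epithelium genes Pax2 (0.217 FPKM against 4.75 to 16.4 in the other uteruses), Pax8 (2.36 against 9.25 to 26.8) and Muc1 (1.97 against 13.2 to 39.7), which were picked out after their values were seen. C3, from the same marker lists, was not low there, at 480 FPKM in OT1 against 245 to 1096 FPKM in the other uteruses. Of the 4 oviduct position markers (Hoxa9, Pax2, Pax8 and Wt1), 0 were called in the uterus by limma, with a median log2 difference of -0.81 and 0 at an unadjusted p under 0.05. In the ovary 1 of the 4, Pax2, was called lower in OT (log2 difference -1.09, SE 0.46, limma adjusted p = 0.997), with a median of -0.52. Between the tissues Hoxa9 and Pax2 were at least 2-fold higher in the uterus at an adjusted p under 0.05, and the median uterus minus ovary log2 difference was 1.37. For OT minus OC in the uterus, 0 of the 4 uterine gland and estrogen-stimulated lumen markers (Foxa2, Ltf, Muc1 and C3) were called, with a median of -0.12. In the same comparison 0 of 8 uterus markers were called by limma, although 4 had an unadjusted p under 0.05, with a median of -0.03. The part of these other cells in the uterine values of Ovgp1, Foxj1 and Dnah9 was not tested.

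The other motile cilium genes were also compared between OT and OC. In the ovary 83 of the 88 were tested, 0 passed the cutoffs and 0 had an unadjusted p under 0.05, and the median OT minus OC log2 difference was 0.03, against -0.01 over all genes. The 5 largest differences in the ovary were those of Cfap221 (0.61, SE 0.55), Ccdc103, a dynein attachment factor (0.55, SE 0.35), Pifo (0.43, SE 0.20), Rfx2, a factor of ciliated cells (-0.40, SE 0.29), and Dyx1c1, a dynein assembly factor (0.33, SE 0.22). In the uterus 35 of the 88 were tested, 0 passed the cutoffs by limma and 0 had an unadjusted p under 0.05, with a median of -0.15 against 0.01 over all genes. The largest uterine differences beside Dnah5 were those of Rsph10b (-0.82, SE 0.71), Myb (-0.68, SE 0.56), Cfap74 (-0.55, SE 0.30) and Dnah12 (0.53, SE 1.12). For the 24 primary cilium and IFT genes 0 were called in either tissue by limma, and at an unadjusted p under 0.05 the ovary had 1 and the uterus 0, with a median of 0.02 for the ovary and -0.06 for the uterus.

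Whether the OT minus OC difference itself differed between the tissues was tested as an interaction over all 14 libraries. That fit held the group means and no term for the mouse, although each mouse gave both tissues. Of the 7 fitted genes 0 passed the cutoffs, where 1.83% of 14557 tested genes did, and 0 of the 7 had an unadjusted p under 0.05 by limma. Tekt1 had an interaction of -1.03 on the log2 scale (SE 0.56), Dnah9 of -0.73 (SE 0.37), Foxj1 of -0.50 (SE 0.32) and Ovgp1 of -1.38 (SE 1.13), with limma adjusted p of 0.844 to 0.847. Tekt1, Dnah9 and Foxj1 entered through their ovary levels and had uterus means under 0.5 FPKM, so that their values depend on the 0.1 FPKM added before the log. With 1 FPKM added they were -0.37, -0.16 and -0.10. Without the OT1 mouse, Tekt1 passed the cutoffs at -1.33, with 2 of the 3 remaining OT uteruses listed at 0, and without the OT3 mouse Cfap126 did at -1.20. With all mice Cfap126 was at -0.62 (SE 0.58).

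Within the ovary, the ciliated cell genes rose and fell together from mouse to mouse. For the 6 ciliated cell genes above 0.5 FPKM, the mean deviation from the ovary mean on the log2 scale was 0.12, -0.14 and -0.18 in OC1 to OC3, and 0.29, 0.08, -0.47 and 0.29 in OT1 to OT4. OT3 was below the mean in 6 of 6 genes, and OT1 and OT4 were above it in 6 of 6. The 15 pairs of these genes had Pearson correlations of 0.667 to 0.924 over the 7 ovaries (median 0.825), a description over libraries that share a depth and a dissection. Ovgp1 was set apart from them. Its correlation with the 6 genes was -0.16 to 0.455 (median 0.210), and in OT1 it was the lowest of the 7 ovaries, 0.69 below its mean, while all 6 ciliated cell genes were above theirs.

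**Figure D4:**
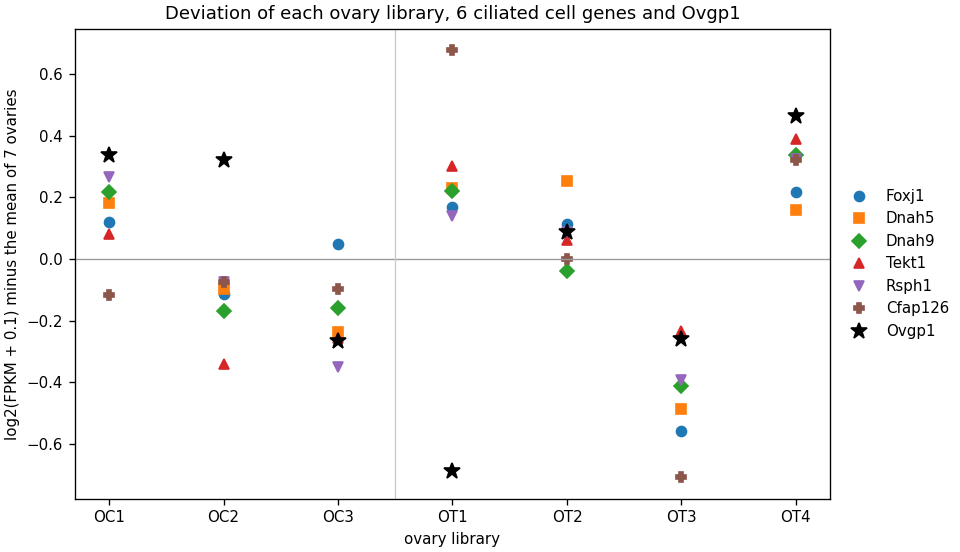
Deviation of each ovary library (x axis) from the mean of the 7 ovaries on the log2(FPKM + 0.1) scale (y axis), for 6 ciliated cell genes (coloured) and Ovgp1 (black stars). The ciliated cell genes were all low in OT3 and all high in OT1 and OT4, and Ovgp1 was low in OT1 and high in OC2, where the 6 others were on the other side of 0.

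The low OT3 ovary was shared by the wider motile cilium program. Among the other 83 motile cilium genes tested, the median deviation was -0.45 in OT3, 79 were below their mean there and 51 had their lowest ovary there. The medians of the other 6 ovaries were -0.15 to 0.22. The 24 primary cilium and IFT genes had a median deviation of -0.03 in OT3. Hoxa10 was 3.92, 53.4 and 27.7 FPKM in OC1 to OC3 and 0.572, 6.09, 48.9 and 23.4 FPKM in OT1 to OT4. The ovaries with the highest Hoxa10, OC2 and OT3, were below the mean for the ciliated cell genes, and those with the lowest, OT1 and OC1, were above it. OT4, with 23.4 FPKM of Hoxa10, was as far above the mean as OT1, so the order of the libraries was not the same for both. The summed adipocyte markers were 241 to 401 FPKM in OC ovaries and 307 to 2598 FPKM in OT ovaries. Of the 10, 5 were called higher, where 53 of 14415 tested genes were, and their smallest limma adjusted p was 0.997. The part of the dissection and of other cells in these ovary differences was not tested.

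The ratio of the secretory to the ciliated marker was compared in each library. Ovgp1 was 21.4 to 52.3 times Foxj1 in the ovaries (median 45.0), lowest in OT1 and highest in OC2. In the uteruses the ratio was 34.2 to 647 (median 184), lowest in OT1 and highest in OC1. In 6 of 7 uteruses it was above the highest ovary ratio, and in each of the 7 mice it was above the ratio in the ovary of the same mouse. The exception among the uteruses was OT1, where Ovgp1 itself was low. The uterine ratios divide by Foxj1 values of 0.113 to 0.297 FPKM, near the bottom of the scale, so their size is uncertain. The balance of secretory and ciliated cells was not tested.

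**Figure D5:**
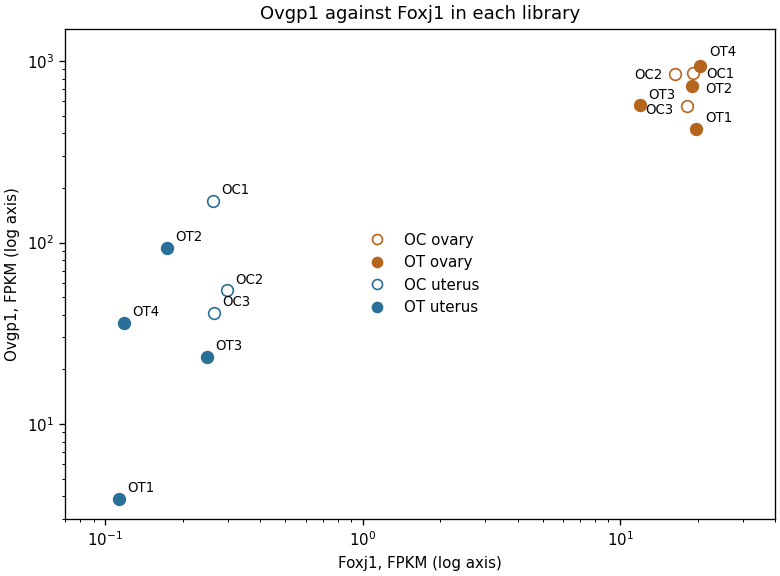
Ovgp1 (y axis) against Foxj1 (x axis) in each library, both in FPKM on log axes, with ovaries in brown, uteruses in blue, OC open and OT filled. The 7 ovaries cluster at 11.9 to 20.5 FPKM of Foxj1, and the 7 uteruses spread from 3.86 to 169 FPKM of Ovgp1 at less than 0.3 FPKM of Foxj1.

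The genes whose pattern over the 7 ovaries was most like the mean of the 7 ciliated cell genes, Mcidas included, were Cdkl4 (Pearson r = 0.974), Ndrg2 (0.972), Mak (0.968), 2010300C02Rik (0.965) and Dnah6, an inner arm dynein (0.961). Without OT3 their r was 0.930 to 0.968. Mcidas, though hardly detected, ran from -0.74 to 0.89 around its ovary mean on the log2 scale, against -0.71 to 0.68 for Cfap126. The averaged pattern thus rests partly on Mcidas, and no likeness was computed without it. Of the 100 genes most like it, 15 were on the motile cilium lists, which held 83 of the 14408 genes compared. The genes most like Ovgp1 in the ovary were Serp2 (0.984), Irf9, an interferon signalling factor (0.981), Ttll2 (0.980), Abhd13 (0.969) and Krt8, a keratin of simple epithelia (0.967), and 0 of its 100 most alike were on those lists. In the uterus, the genes most like Ovgp1 were Chdh, choline dehydrogenase (0.997), Anpep, an aminopeptidase of epithelial surfaces (0.995), Atp2b2 (0.992), Nhlrc2 (0.990) and Fam124b (0.990), and without OT1 their r was 0.965 to 0.990. In the uterus 4 of the 7 genes in the ciliated cell mean were under 0.5 FPKM, and those most like that mean were Qrich1 (0.954), Arglu1 (0.950), Nelfb (0.949), Rps6ka6 (0.937) and Tube1 (0.932), with 1 of the 100 most alike on the lists. Each likeness is a description over 7 libraries, with no test.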

How the data were processed

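The data were RNA-seq values of 7 ovaries and 7 uteruses (3 OC and 4 OT mice). Per the study's methods, reads of rRNA-depleted stranded libraries were trimmed by Skewer 0.2.2, aligned to mm10 by STAR 2.5 and counted by strand in Cufflinks 2.2.1, and the authors deposited the resulting FPKM per gene, which are already scaled to depth, so the fragments per library are unknown. The 8 genes and all gene lists were chosen with earlier results of these data known. Genes averaging 0.5 FPKM or more entered limma 3.58.1 (R 4.3.3) on log2(FPKM + 0.1), with a trend and Benjamini-Hochberg adjustment over all genes, since Cuffdiff needs the reads. A gene was called at a 2-fold change and an unadjusted p of 0.05 or less. Ovary and uterus were compared with the mouse as a block, while the interaction was fitted without one. Single genes were also tested by exact permutation, and promoters came from RefSeq. Genes were named as members, as the 5 motile cilium genes with the largest difference per tissue, as the 3 at each end between tissues and as the 5 most alike by Pearson r. Further steps ran in Python 3.11.15 with pandas 2.3.3, and the fits were tested on simulated data. Alternatives covered the pseudocount, filter, scaling, block and left-out mice.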

Additional observations from a re-analysis of the deposited data

Results flagged for a closer look

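Among the 4 OT libraries of a tissue, 8 of 71 groups checked held a library far from the other 3 by Dixon's test. Chance alone gives about 1 in 20 for independent groups chosen without regard to their values, so that rate is no yardstick here. Genes beyond the 8 were named from the same libraries, Cfap74, Dnah12 and Tppp3 by the size of a difference and Arglu1 and Tube1 by their likeness to the ciliated cell genes. The groups are also not independent, since the ciliated cell genes rose and fell together. In the ovary OT3 was the library in question each time, with Foxj1 at 11.9 FPKM, Dnah5 at 6.98 FPKM and Cfap74 at 1.11 FPKM, each below the other OT ovaries. In the uterus OT3 was above the other OT libraries for Cfap126 at 2.68 FPKM, Arglu1 at 30.9 FPKM and Tube1 at 1.37 FPKM. Dnah12 was at 2.50 FPKM in the OT2 uterus, above its OT neighbours at 0 to 0.337 FPKM. Tppp3 was at 167 FPKM in the OT1 uterus, above its OT neighbours at 52.9 to 65.5 FPKM.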

How the results depend on the processing

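Under the alternatives, 308 values of single genes kept their direction and their side of the cutoffs, 14 changed sign and 3 came to pass the cutoffs, while 146 counts stayed within 1.5 times the reported count and 13 did not. Between tissues every alternative run called the 7 genes of the main fit. The run with no filter also fitted Mcidas, which was not called. For OT minus OC in the ovary, 65 genes were called over all genes, and 42 with a filter of 1 FPKM, 159 with no filter, 18 with a pseudocount of 1 FPKM and 51 to 137 with 1 mouse left out (137 without OT3). In the uterus 410 became 259 with a pseudocount of 1 FPKM, and 295 to 605 with 1 mouse left out. For the interaction 267 became 134 with a pseudocount of 1 FPKM, 297 with the mouse as a random block, and 214 to 378 with 1 mouse left out. Under the random block 0 of the 8 genes were called. With 1 mouse left out, 0 to 1 of the 8 genes was called in the uterus and in the interaction, and 0 to 1 other motile cilium gene in the interaction (Pifo without OC1, Zmynd10 without OT3, both named after their values were seen). Small ovary differences crossed 0 when 1 mouse was left out, over -0.031 to 0.43 for Cfap126, -0.0024 to 0.27 for Dnah5, -0.041 to 0.21 for Dnah9, -0.11 to 0.15 for Foxj1 and -0.056 to 0.25 for Rsph1. Ovgp1 ranged over -0.43 to -0.034 and Tekt1 over 0.22 to 0.43 without crossing 0. The range for Rsph1 was -0.035 to 0.15 in the uterus and -0.27 to 0.15 in the interaction. Same-numbered OC and OT mice are different animals, and the correlation of their deviations had a mean of 0.152 in ovaries and 0.0178 in uteruses and was not above 0.1 in every pair, so the number was not taken as a pairing. A replicate block, without OT4, gave 103 called ovary genes and 666 called uterus genes, with the members still at 0 in both, and Dnah9 (-0.041) and Rsph1 (-0.0029) changed sign in the ovary, with the same values when OT4 was left out and no block was used. The cause of the other changes was not tested. The depth limits what can be said of Mcidas in both tissues and of Foxj1, Dnah9 and Tekt1 in the uterus, which stood at under 0.3 FPKM.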
